A study of Mus musculus with 3 samples.

Results

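Pitx1, Msx1, Msx2, Prrx1, Prrx2 and Tbx15 are transcription factor genes of limb bud and body wall mesenchyme, and each was read by 1 probe on a set of 3 two-colour arrays of embryonic mouse kidney. They were taken by name from the platform's probe annotation, among probes with a single gene symbol and a value on every array. All 6 genes named met that rule, of 14047 genes that did. They were picked with their ratios on these arrays already known, so their ratios are a description, carry no test and support nothing by themselves.

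Each array carried RNA of CD1 embryos, pooled from both sexes and amplified before labelling, from 2 microdissected tissues. Channel 1 held metanephric mesenchyme at 10.5 days post coitum (dpc), the condensing tissue that gives rise to the nephrons and the stroma of the kidney, and channel 2 held whole metanephroi at 11.5 dpc, when the ureteric bud has grown into that mesenchyme. No genetic change or treatment was recorded, and there was no reference RNA. The dyes were given as red/green on arrays 1 and 2 and as green/red on array 3. The sources used here do not say whether the arrays came from separate dissections, and the spread between them may be technical.

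The deposited value is the log2 ratio of the channels, and the labels do not name its numerator. On arrays 1 and 2, which share a dye order, a negative ratio therefore stands for more RNA in one of the tissues and a positive ratio for more in the other. Neither side is assigned to a stage. On these arrays alone an effect of the dyes on a gene cannot be told apart from the tissue. The labels also leave unsettled whether the ratios of array 3 were already turned to the direction of the others. If they were not, its signs stand for the opposite tissue, and a sign shared by all 3 arrays is then no shared tissue direction. Means over the 3 arrays are therefore given as deposited and, for some genes, also with array 3 turned. A mean printed without its turned value depends on the direction of array 3 as well. Ratios were held on array 1 for 21354 gene probes, on array 2 for 19883 and on array 3 for 21396. A ratio holds no level, so the signal of a gene over background, and whether a defining marker of either tissue is absent, cannot be read from it. In dissected tissue, fewer cells of a type and less RNA per cell cannot be told apart.

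As background, the limb bud and the body wall of the flank grow from lateral plate mesenchyme next to the region where the metanephros forms. Pitx1, a paired-type homeodomain factor, gives the hind limb its identity and acts there upstream of Tbx4. Prrx1 and Prrx2 are paired-related homeodomain factors of limb and craniofacial mesenchyme with partly shared roles in skeletal growth. Msx1 and Msx2 are homeodomain repressors that respond to bone morphogenetic proteins (BMPs) in limb, tooth and skull mesenchyme, and Tbx15 is a T-box factor of limb skeleton, shoulder girdle and dorsal dermis.

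Upstream sequence is shown for Msx1 and Msx2, a pair of paralogs that both had negative ratios, to set their promoters side by side. The stretches below are the 250 bases before the annotated start, from RefSeq on build GRCm38.p6, at chr5:37824586-37824835 for Msx1 and chr13:53472781-53473030 for Msx2, both on the minus strand and written 5′ to 3′ along the gene. Capitals mark 3 motifs searched on both strands, which are CCAAT, the GC box GGGCGG and the homeodomain core TAATTA.

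Msx1: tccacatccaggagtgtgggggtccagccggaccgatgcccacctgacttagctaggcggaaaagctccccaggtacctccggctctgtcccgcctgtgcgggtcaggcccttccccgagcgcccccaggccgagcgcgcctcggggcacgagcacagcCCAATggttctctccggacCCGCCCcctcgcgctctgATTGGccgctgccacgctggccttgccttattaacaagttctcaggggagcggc

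Msx2: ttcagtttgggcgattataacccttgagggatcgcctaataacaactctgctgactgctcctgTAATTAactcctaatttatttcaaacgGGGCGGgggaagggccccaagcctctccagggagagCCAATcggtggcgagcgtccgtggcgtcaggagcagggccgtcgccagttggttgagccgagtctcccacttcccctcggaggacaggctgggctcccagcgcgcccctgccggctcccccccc

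The Msx1 stretch held 2 CCAAT matches, one of them on the other strand, and 1 GC box. The Msx2 stretch held 1 CCAAT match, 1 GC box and 1 TAATTA. None of these matches overlapped another. Of all 32851 such windows in the table, CCAAT was present in 33.8%, GGGCGG in 32.7% and TAATTA in 4.84%. Windows were also held for Prrx1, which had 1 TAATTA, and Prrx2, which had 2 GC boxes. Those windows lie inside a longer annotated form of their genes and are not printed. The share of G and C was 68.0% for Msx1, 61.6% for Msx2, 47.6% for Prrx1 and 70.0% for Prrx2, beside a median of 52.4% over all windows. A match is a description of letters and says nothing of binding.

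All 6 genes had a negative log2 ratio on all 3 arrays as deposited. A negative ratio on all 3 arrays was found for 22.5% of all genes, and a positive one for 22.9%. Since the genes were chosen from this comparison, nothing is read from their count. The mean ratios ran from -1.95 for Pitx1 to -0.72 for Msx2, with a median of -1.04, beside a median of -0.0019 over all genes. SDs over the arrays lay between 0.23 and 0.43, around the median SD of 0.34 over all genes.

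Pitx1, the hind limb determinant, had log2 ratios of -1.55, -2.17 and -2.13 on arrays 1, 2 and 3. These correspond to linear ratios of 0.342, 0.222 and 0.228, so arrays 2 and 3, which have opposite dye orders, lay close together and array 1 was nearer to 0. Its mean was -1.95 ± 0.35 (SD, n = 3), or 3.87-fold, and it was -0.53 with array 3 turned. Fold sizes here and below rest on array 3 as deposited. Ranked by mean ratio, Pitx1 was number 74 from the lowest of all genes, but number 1309 with array 3 turned and number 316 on arrays 1 and 2 alone.

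Msx1, the BMP-responsive repressor, had -1.92, -1.09 and -1.30. Array 1 was the most negative here, the reverse of Pitx1, and the linear ratios were 0.264, 0.470 and 0.405. Its mean was -1.44 ± 0.43, or 2.71-fold, the widest spread of the 6 genes. Msx2, its paralog, had -0.80, -0.46 and -0.90, with a mean of -0.72 ± 0.23 or 1.65-fold. Msx1 was more negative than Msx2 on every array, by 1.12, 0.63 and 0.40, and the mean difference was -0.72 ± 0.37. The gap was widest on array 1.

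Prrx1 had -1.52, -1.15 and -0.76, linear ratios of 0.348, 0.451 and 0.592. The array with the other dye order was the nearest to 0. Its mean was -1.14 ± 0.38, or 2.21-fold. Prrx2 had -0.59, -0.64 and -1.02, so that its array 3 was instead the most negative, and its mean was -0.75 ± 0.24 or 1.68-fold. Prrx1 was more negative than Prrx2 by 0.94 on array 1 and by 0.51 on array 2. On array 3 the order turned, with Prrx1 0.26 above Prrx2, and the mean difference of -0.39 ± 0.61 was smaller than its own spread.

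Tbx15, the T-box member, had -1.17 and -1.18 on the arrays of one dye order and -0.45 on array 3. Its first linear ratios, 0.445 and 0.442, were nearly alike, and that of array 3 was 0.733. Its mean was -0.93 ± 0.42, or 1.91-fold. The gap between array 3 and the mean of arrays 1 and 2 was 0.72 for Tbx15, 0.58 for Prrx1 and 0.20 for Msx1, all toward 0. It was -0.40 for Prrx2 and -0.27 for both Pitx1 and Msx2, away from 0. The genes thus moved in both directions on array 3, and dye order cannot be told apart from the array itself, since a single array had the other order.

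**Figure D1:**
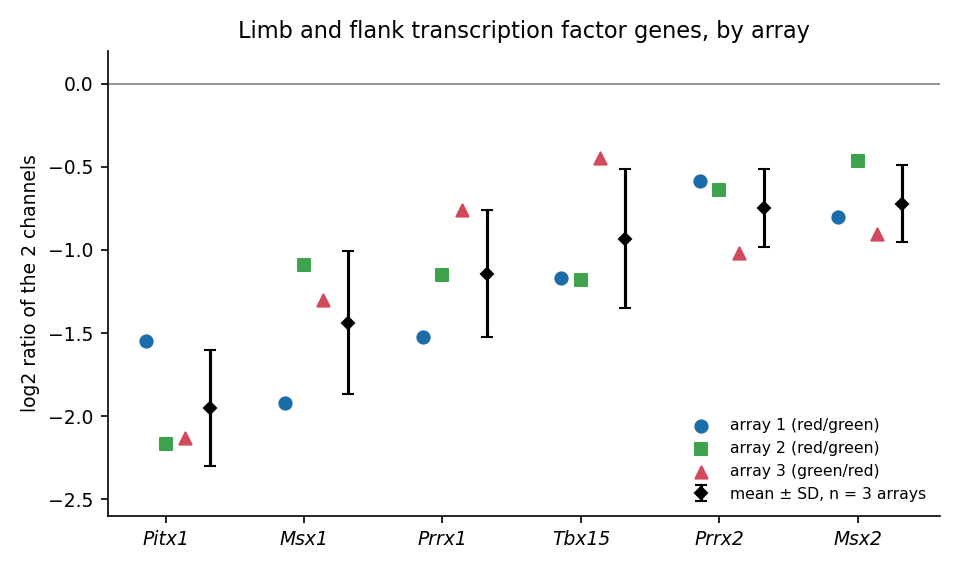
Log2 ratio of the 2 channels (vertical axis) of each of the 6 genes on array 1, array 2 and array 3, with the mean and SD over the 3 arrays as a black diamond and bar. Every point lies under 0, from -2.17 for Pitx1 on array 2 to -0.45 for Tbx15 on array 3.

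By mean ratio the order from the most negative was Pitx1, Msx1, Prrx1, Tbx15, Prrx2 and Msx2. No pair of neighbours in that order kept it on all 3 arrays, and in each pair it held on 2 of 3. The neighbour differences were -0.51 ± 0.78 between Pitx1 and Msx1, -0.30 ± 0.32 between Msx1 and Prrx1, and -0.21 ± 0.21 between Prrx1 and Tbx15. No neighbour difference was thus the same in sign across the arrays, and each was near to or below its own SD. Tbx15 and Prrx2 differed by -0.18 ± 0.65, and Prrx2 and Msx2 by -0.03 ± 0.21. Farther apart in the order, Pitx1 was more negative than Tbx15 on every array, with a mean difference of -1.02 ± 0.65.

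Each array also placed the genes differently among all genes. On array 1 the percentage of genes at or below the gene's ratio was 2.20% for Msx1, 2.90% for Pitx1 and 2.98% for Prrx1. On array 2 it was 2.68% for Pitx1, while Tbx15, Prrx1 and Msx1 stood together between 6.85% and 7.78%. On array 3 Pitx1 reached 0.812% and Msx1 3.78%, while Tbx15 stood at 24.4%. Pitx1 was thus the one gene of the set under 3% on every array. Msx2 stood at 8.61%, 22.4% and 8.83%, and Prrx2 at 13.9%, 16.0% and 6.93%. By mean ratio as deposited all 6 lay within the lowest 8.63%. With array 3 turned Prrx1, Tbx15, Msx1 and Pitx1 stood between 7.55% and 9.32%, while Msx2 stood at 31.3% and Prrx2 at 36.8%.

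**Figure D2:**
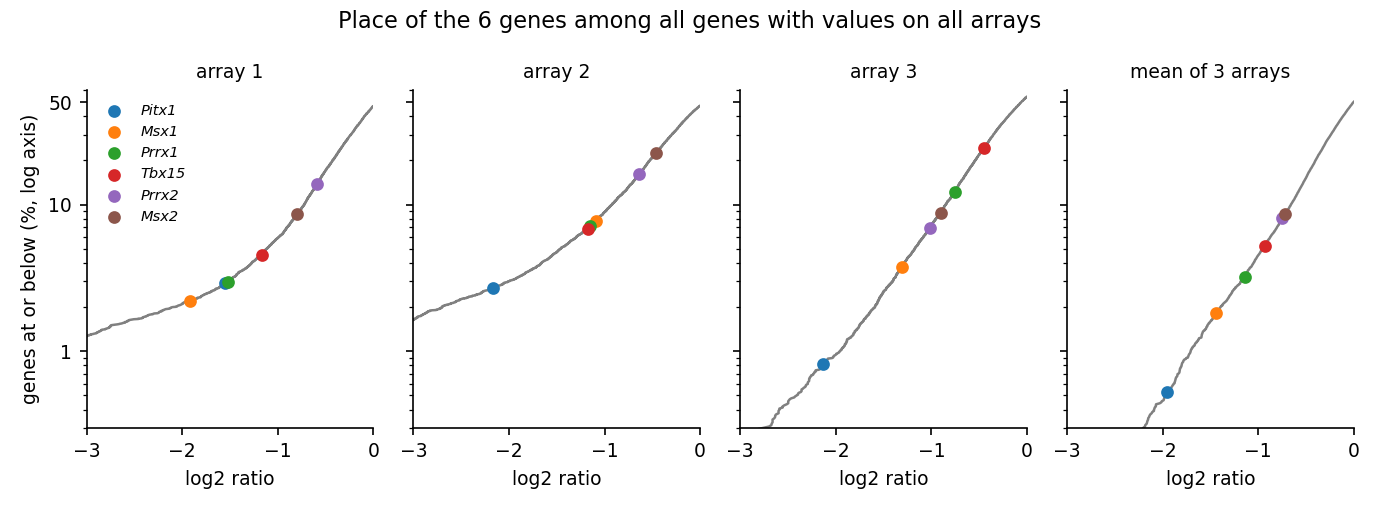
Percentage of the 14047 genes at or below a given log2 ratio (vertical axis, log scale) against that ratio (horizontal axis), for each array and for the mean of the 3 arrays, with the 6 genes as coloured points on the grey curve of all genes. Only ratios between -3 and 0 are drawn, and Pitx1 lies at 0.812% on array 3 while Tbx15 lies at 24.4% there.

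By limma, the test of the mean ratio against 0 with Benjamini-Hochberg adjustment, 0 of 14047 genes passed an adjusted p of 0.05, a share of 0%, with 0.149 as the lowest adjusted p. Unadjusted, 2750 genes (19.6%) had a p under 0.05, of which 1361 (9.69%) were negative and 1389 (9.89%) positive. No gene can therefore be called different between the tissues, and the values below are descriptions. The lists of related genes and markers overlap in part, and they are given by their counts and medians. They were chosen with earlier results of these data known, so a list's excess over all genes is a description and no independent support. Their counts on all arrays stand beside 22.5% negative and 22.9% positive over all genes.

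The measured relatives of the 6 genes lay on both sides of 0. Among 11 relatives sought, 7 had values on all 3 arrays. Tbx18, a T-box factor of body wall, somite and urogenital mesenchyme, was positive on every array at 0.69, 0.59 and 1.30, with a mean of 0.86 ± 0.38, and was -0.0057 with the sign of array 3 turned. Its 2 probes were both positive but unlike in size, with means of 0.18 and 1.54. Tbx5, the forelimb T-box factor, had -0.27, -0.42 and -1.13, with a mean of -0.61 ± 0.46, and was 0.14 with array 3 turned. Tbx4, which Pitx1 acts upon in the hind limb, had 0.31, -1.43 and -0.55, on both sides of 0, with a mean of -0.56 ± 0.87.

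The homeobox relatives lay nearer to 0. Msx3 had -0.42 ± 0.48, Alx4, a paired-type factor of anterior limb mesenchyme, had 0.06 ± 0.13, Pitx3 had -0.05 ± 0.51 and Shox2, a factor of proximal limb growth, had -0.06 ± 0.87. All 4 crossed 0 between arrays. With array 3 turned, Msx3 became 0.01 and Pitx3 0.38. Shox2 became 0.04 with a dye term and 0.16 with array weights, and Pitx3 became 0.11 with array weights.

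Of 30 other limb bud and body wall factors, 23 were measured, and 9 of them (39.1%) were negative and 3 (13.0%) positive on all arrays, against 22.5% and 22.9% of all genes. Their median was -0.14. The largest were Hoxa13, a factor of the distal limb and the hindgut, at -2.22, -0.53 and -1.45, with a mean of -1.40 ± 0.84, and Isl1, which acts at the start of the hind limb, at -0.95 ± 0.43. With array 3 turned Hoxa13 was -0.43 and Isl1 was -0.06. Twist2, a basic helix-loop-helix factor of mesenchyme and dermis, had -0.94 ± 0.28, and its relative Twist1 had -0.73 ± 0.31. The 3 positive factors were Tbx18, given above, and Snai2 and En1, both named after their values were seen. Snai2 had 0.58 ± 0.44 and En1 0.50 ± 0.33. Of these 23, 6 were negative and 1 positive at an unadjusted p of 0.05 by limma, where all genes gave 9.69% and 9.89%, and 0 passed adjustment.

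The families to which the 6 genes belong were spread around 0. Of 21 measured paired-type homeobox genes, 6 were negative and 2 positive on all arrays, with a median of -0.05, which was 0.09 with array 3 turned and 0.08 with array weights. Otx1 had 0.87 ± 0.44 and Otp -0.66 ± 0.17. Of 32 Dlx and NK-like homeobox genes, 6 were negative and 3 positive on all arrays, with a median of -0.04, which was 0.16 with array 3 turned and 0.11 with array weights. Hlx, a factor of visceral mesenchyme, had -0.89 ± 0.42 but 0.02 with array 3 turned, Lbx1 had -0.78 ± 0.20 and Barx1 0.75 ± 0.06. Of 14 T-box genes, 2 were negative and 4 positive on all arrays, with a median of 0.04, which was -0.02 with a dye term. Without array 3 the medians of the paired-type and the Dlx and NK-like genes were 0.02 and 0.11.

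Signals and receptors of the limb bud lay on both sides. Of 31 signal and effector genes, 6 were negative and 9 positive on all arrays, with a median of 0.10, which was -0.07 without array 2. Tgfb2 had 1.36 ± 0.63, the joint growth factor gene Gdf5 1.23 ± 0.60 and the activin antagonist gene Fst 1.13 ± 0.90, while the ectodermal ligand gene Wnt6 had -0.92 ± 0.42. Of 25 receptor genes, 7 were negative and 8 positive, with a median of 0.07, which was -0.14 with array 3 turned and -0.15 without array 3. Ror2, a Wnt5a receptor, had -0.56, -3.36 and -0.99, with array 2 far from the others. Boc, a hedgehog co-receptor, had 0.62 ± 0.23.

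Msx1 and Msx2 respond to BMPs, and other BMP-responsive genes lay on both sides. Of 13 measured, 3 (23.1%) were negative and 6 (46.2%) positive on all arrays, against 22.5% and 22.9% of all genes. Their median was 0.48 by mean ratio, but by array it was 0.40, 0.56 and -0.02, and it was 0.21 by mean ratio with array 3 turned. Bmper, a secreted BMP modulator, had 1.66, 2.07 and 1.77, with a mean of 1.84 ± 0.21, and Id1, a direct BMP target, had 0.63 ± 0.25. Gata3 had 0.64 ± 0.53 but -0.18 with array 3 turned. The 3 negative genes, named after their values were seen, were Bambi at -0.33 ± 0.23, Atoh8 at -0.25 ± 0.16 and Dlx5 at -0.09 ± 0.09. By limma 5 of the 13 were positive and 0 negative at an unadjusted p of 0.05, where all genes gave 9.89% and 9.69%, and 0 passed adjustment.

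Genes of the tissues that limb mesenchyme forms were spread around 0. Of 28 cartilage, bone and tendon genes, 5 were negative and 3 positive on all arrays, with a median of 0.00045 that changed sign under 5 of the alternatives. Col2a1, the cartilage collagen, had -0.53 ± 0.09 and Col1a1, the bone and dermis collagen, 0.73 ± 0.31. Sox9, the cartilage regulator, had -0.22, 0.63 and -0.50, on both sides of 0. Hapln1, a cartilage matrix linker, had -5.43, -0.53 and -1.06, with array 1 far from the others and a mean of -2.34 ± 2.69.

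Somite and muscle genes were mostly negative, as the 6 genes were. Of 25 measured, 14 (56.0%) were negative and 3 (12.0%) positive on all arrays, with medians of -0.49, -0.45 and -0.26 on arrays 1, 2 and 3. Acta1, the skeletal muscle actin, had -4.50, -6.02 and -4.37, and Myl1 and Tnnc1, which encode contractile proteins, had -2.66 ± 0.89 and -2.72 ± 1.04. Myog, the muscle differentiation factor, had -1.06, -1.28 and 0.01. The 3 positive genes, named after their values were seen, were Meox2 at 0.62 ± 0.11, Uncx at 0.57 ± 0.88 and Ttn at 0.10 ± 0.01. The part of such cells in the ratios of the 6 genes was not tested.

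Markers of other cell types differed from list to list. Of 17 surface ectoderm genes, 6 were negative and 2 positive on all arrays, with a median of -0.22. Of 16 endothelial genes, 8 were negative and 0 positive, with a median of -0.25. Trp63, a master factor of the epidermis, had -0.89 ± 0.12, Pecam1 -0.59 ± 0.13 and Cldn5 -1.12 ± 0.31, but with array 3 turned Pecam1 was -0.29 and Cldn5 -0.14. The 2 positive surface ectoderm genes, named after their values were seen, were Perp at 0.29 ± 0.14 and Esrp1 at 0.35 ± 0.21. Neural genes had 6 of 16 negative and 2 positive with a median of -0.15, although Dcx had 1.40 ± 0.29. Ratios of gut and liver genes were mixed, with 7 of 18 negative and 6 positive and a median of -0.52 by mean ratio, but of 0.11 on array 3. Among them Afp had -1.68 ± 0.07 and Apoa1 -1.58 ± 0.10, while Apom and Alb, named after their values were seen, were positive on every array at 0.99 ± 0.53 and 0.36 ± 0.23. Fgb had 0.06, 0.29 and 6.05, and its mean was -1.90 with array 3 turned. Erythroid genes had 2 of 11 (18.2%) negative and 0 positive with a median of -0.09, which was 0.05 with a dye term and 0.02 without array 1, and Klf1 had -1.10 ± 0.14. The globin genes Hba-a1, Hbb-y, Hba-x and Hbb-bh1, also named after their values were seen, had means between -0.04 and 0.01. The part of any of these cell types in the ratios of the 6 genes was not tested.

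Kidney genes had list medians above 0. Of 15 renal stroma genes, 7 were positive and 4 negative on all arrays, with a median of 0.50, and Foxd1, the stromal factor, had 1.56 ± 0.17 while Dlk1 had -2.46 ± 0.13. Of 18 metanephric mesenchyme genes, 6 were positive and 2 negative on all arrays, with a median of 0.12, which was -0.04 without array 1 and -0.0021 without array 2. Wt1, which the mesenchyme requires, had 1.78, 1.70 and 1.76, while Six2, the nephron progenitor factor, had 0.60, 0.30 and -0.09. The 2 negative genes, named after their values were seen, were Hoxa11 and Osr1, each with a mean of -0.36. Of 20 ureteric bud genes, 9 were positive and 5 negative on all arrays, with a median of 0.17, which was -0.12 with array 3 turned. Calb1 had 1.16 ± 0.10 and Ret, the bud's receptor, -0.43 ± 0.11.

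**Figure D3:**
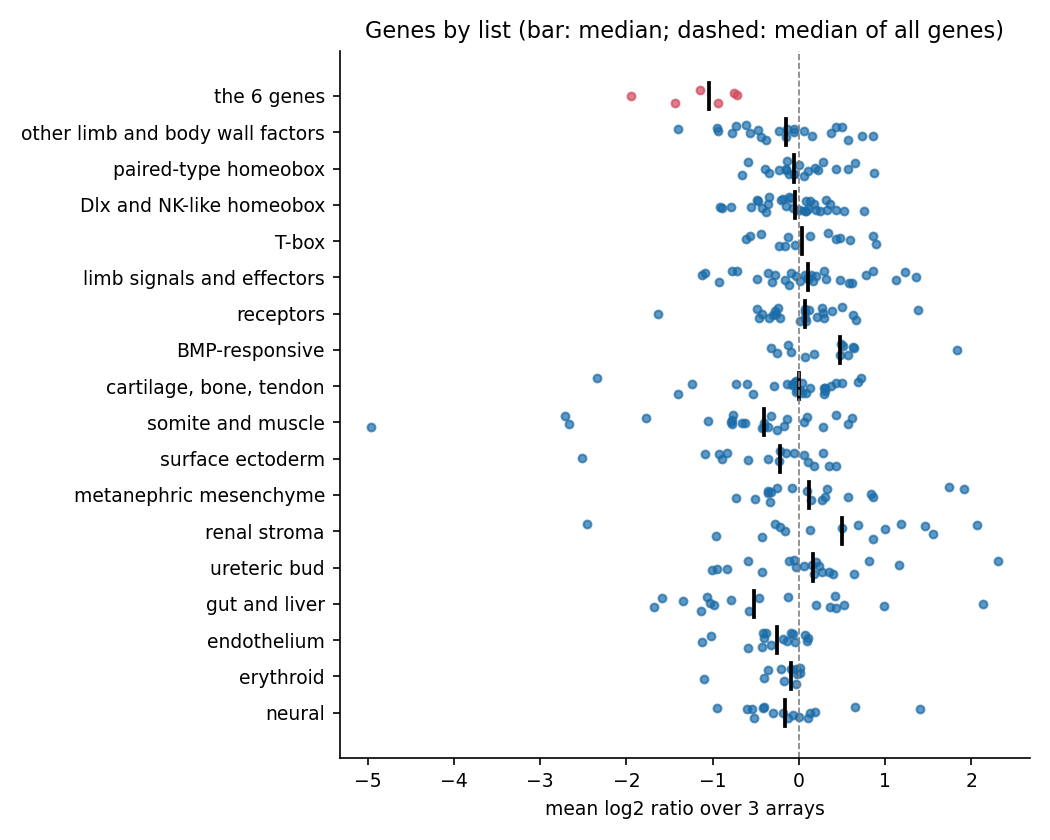
Mean log2 ratio over the 3 arrays (horizontal axis) of the 6 genes in red and of the measured genes of 17 lists in blue, with a black bar at each list's median and a dashed line at the median of all genes. The list medians run from -0.52 for gut and liver to 0.50 for renal stroma, and the 6 red points lie between -1.95 and -0.72.

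Likeness of pattern was measured as the Euclidean distance over the 3 arrays to the median ratio of the 6 genes on each array, which was -1.35, -1.12 and -0.96. The nearest genes were Tubd1 at a distance of 0.0789, Slc25a39 at 0.0839, Tinf2 at 0.137, 4930545L23Rik at 0.166 and Kpnb1 at 0.168. They encode, where known, a tubulin, a mitochondrial carrier, a telomere protein and a nuclear import factor, and their mean ratios lay between -1.12 and -1.07. None is a transcription factor of the limb, and 3 arrays give little to tell patterns apart by.

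Since all 6 genes are negative on every array, leaving out or reweighting arrays could change the size of their means but not the sign. Apart from turning array 3, Pitx1 stayed between -2.15 and -1.77, Msx1 between -1.65 and -1.20, Prrx1 between -1.34 and -0.95, and Tbx15 between -1.17 and -0.81. Prrx2 stayed between -0.83 and -0.61 and Msx2 between -0.85 and -0.63. The sign of array 3 had the greatest effect. Over the 19660 probes with values on all arrays, which are no independent replicates, the Pearson correlation between arrays 1 and 3 was 0.0517, between arrays 2 and 3 it was 0.0148, and between arrays 1 and 2 it was 0.324. The Spearman correlations of the same pairs were 0.211, 0.171 and 0.466. With array 3 turned, the means became -0.64 for Prrx1, -0.63 for Tbx15, -0.57 for Msx1, -0.53 for Pitx1, -0.12 for Msx2 and -0.07 for Prrx2, and Pitx1 was no longer the most negative. On arrays 1 and 2 alone, which had the same dye order, the means were -1.86 for Pitx1, -1.51 for Msx1, -1.34 for Prrx1, -1.17 for Tbx15, -0.63 for Msx2 and -0.61 for Prrx2.

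**Figure D4:**
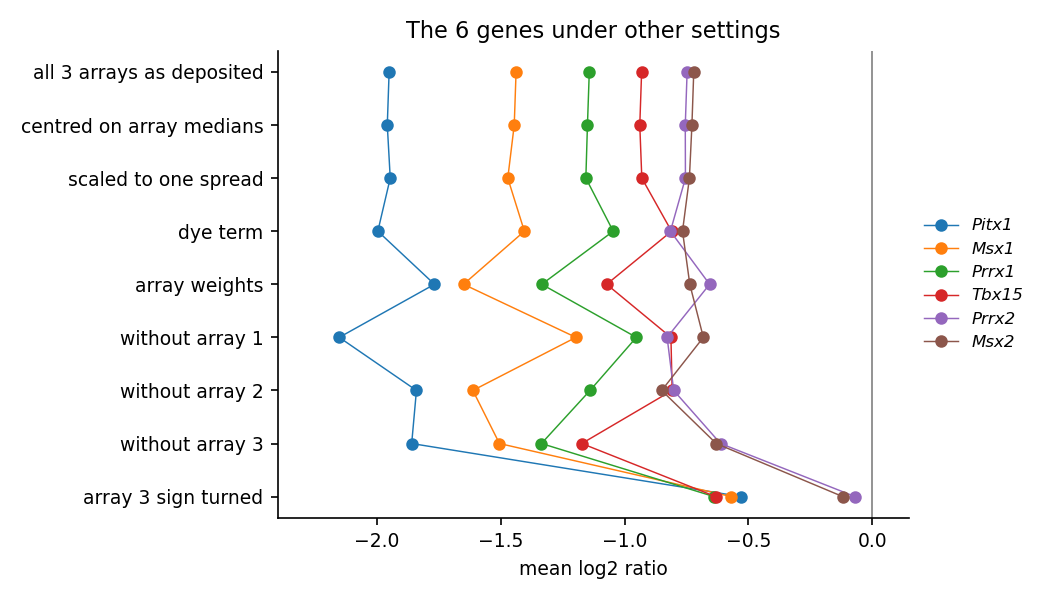
Mean log2 ratio (horizontal axis) of each of the 6 genes under 9 settings (rows), from all 3 arrays as deposited at the top to the sign of array 3 turned at the bottom. All points lie under 0, and with array 3 turned the 6 genes draw together between -0.64 and -0.07.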

How the data were processed

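Per the labels, the authors scanned 3 two-colour Compugen mouse arrays with Imagene 5.5, applied print-tip lowess and a normalization between arrays in R, and raised control channel values under 10 to 10. The deposited log2 ratios have 0.01 as their lowest linear ratio, and 99.16% of 48076 ratios under 10 were whole steps of 0.001 (within 0.01 step). The sources used here name no genome build.

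Control and blank spots (784 of 22702 rows) were left out. Of 21918 gene probes, 16656 had 1 symbol, 137 several and 5125 none in the platform annotation; Entrez identifiers matched 15970 and changed 0 symbols. Probes of a symbol were averaged. The mean ratio of 14047 genes was tested against 0 (two-sided, limma 3.58.1, R 4.3.3, Benjamini-Hochberg). The fit was also run on simulated data with independent noise and no effect of the dyes, which says nothing of the direction of array 3. Array 3 entered as deposited by the rule that its ratios correlate above 0 with both others. That rule does not settle its direction, since effects of the dyes on genes could also give a correlation above 0. Values after ± are SDs over 3 arrays, whose number limits the precision.

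The 6 genes and the 17 lists were chosen with earlier results of these data known. Other named genes are the relatives, up to 3 per list with the largest mean ratio and one sign on all arrays, tissue markers, and the 5 nearest in pattern. Genes said to be named after their values were seen fall outside that rule. Alternatives were array centring and scaling, a dye term, array 3 turned, array weights, variance estimates, values on 2 arrays, the joining of probes, and each array left out. Figures used Matplotlib 3.10.9.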

Additional observations from a re-analysis of the deposited data

How the results depend on the processing

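The ratio on each array already sets the 2 tissues against each other, and the test of its mean against 0 uses that pairing. The pairing is by array and not by embryo, so the test measures spread between arrays, which may be technical. As the arrays form 1 group, no further replicate block could be fitted. The count of genes past an adjusted p of 0.05 by limma stayed at 0 under every alternative run, with a smallest adjusted p from 0.060 with array 3 turned to 0.587 without array 1, which says little about stability in so small a design. At an unadjusted p of 0.05 the count was 2750, against 779 with array 3 turned, 3979 with array weights, 1156 without array 1 and 1453 without array 2. The median of the 6 genes' mean ratios was -1.04, and it was -0.55 with array 3 turned and from -1.25 (without array 3) to -0.89 (without array 1) with an array left out. Under the other alternatives it moved by less than its spread over the arrays. Genes negative on all arrays numbered 3163, against 1428 with array 3 turned, and from 4261 to 4591 with an array left out. Genes positive on all arrays numbered 3223, against 2175 with array 3 turned, and from 4021 to 5398 with an array left out, where fewer arrays have to share the sign. Turning array 3 moved 5 of the 6 genes, and 45 of 64 other genes named by rule, by more than their SD over arrays. It changed the sign of 9 of those 64 genes and of 5 of 17 list medians, several of them near 0. With an array left out, 7 list medians changed sign, among them that of cartilage, bone and tendon, at -0.07 without array 2. Signal over background was not analysed here, so how dim spots limit these ratios is unknown.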
